A study of Mus musculus with 76 samples.

Results

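The effect of a t haplotype on gene expression was compared between brain and liver of the same female house mice. All groups came from 5 pairs of sisters of wild-derived Mus musculus domesticus, reared in the laboratory to sexual maturity, in which 1 sister carried a t haplotype (genotype +/t) and the other did not (+/+). The pairs, labelled F2, F3, F4, F5 and F7, came from 5 litters. Brain and liver had been sequenced from both sisters of each pair, which gave 20 of the 76 libraries of the series in 4 groups of 5 (brain +/+, brain +/t, liver +/+ and liver +/t). Each library came from the tissue of 1 animal. The animals' ages were not stated beyond sexual maturity, and the t haplotype was carried in every cell, with no transgene or treatment in any group. Libraries of brain and liver from 5 male pairs (M1, M2, M3, M5 and M6), 20 libraries in all, gave the same comparison in other animals; 2 of these pairs, M2 and M3, were littermates of F2 and F3.

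The t haplotypes are variant forms of the proximal part of mouse chromosome 17 that large inversions keep together as a block. They are known for transmission ratio distortion in males, in which distorter genes of the haplotype act on sperm that lack the responder gene. The block also holds the major histocompatibility complex and many genes with no known part in transmission, and a +/t animal carries the t form of all of them beside the ordinary form. The comparison asks whether the transcripts that differ between +/t and +/+ siblings are the same in both tissues. The region from the start of chromosome 17 to 40 Mb is called the t region here.

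Brain libraries held 17 to 42 M counts each (M for mega) and liver libraries 11.1 to 14.8 M. Markers fixed for each tissue matched the labels. Summed levels of 10 neuronal markers in CPM (counts per M counts of the library, scaled by TMM factors) were 6530 to 7540 in brain and 16.9 to 32.1 in liver, and the hepatocyte transcript Alb was at 0.0396 CPM or less in every brain library and at 89837 CPM or more in every liver library. Pituitary markers reached 979 CPM in the brain of the +/t animal of pair F3, against 1.49 to 11.1 CPM in the other brain libraries. In the +/+ brain of pair F4, 66.9% of the mid-range gene counts were even, and the share was 48.7% to 51.2% in the other female libraries. Among the male libraries, the +/+ brain of pair M3 had a like share, 67.8%. In male pair M3 the animal numbers in the titles of the liver libraries go against their genotype labels, which were kept. The t region gene Rsph3a, described below, was at 2.14 CPM in the M3 liver labelled +/+ and at 19.3 CPM in that labelled +/t. The other male livers were at 0.82 to 5.85 CPM in +/+ and 17.1 to 18.5 CPM in +/t. RNA had been extracted by a different protocol in each tissue, which is shared by both genotypes. In whole tissues, fewer cells of a type and less RNA per cell cannot be told apart.

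Few genes had a genotype effect that differed detectably between the tissues. Of 15687 genes tested, 2 were called for the brain minus liver difference at an adjusted p under 0.05 (0.0127% of genes). In both, the ratio of the +/t to the +/+ level was larger in brain than in liver, and the +/+ level itself was lower in brain. These were Rnpepl1, on chromosome 1, and Plg, in the t region. The same fit (edgeR quasi-likelihood test, Benjamini-Hochberg adjustment, pair by tissue as a block) called 13 genes for the genotype effect in brain (0.0829% of genes; 10 higher in +/t, 0.0637%, and 3 lower, 0.0191%) and 36 in liver (0.229%; 16 higher, 0.102%, and 20 lower, 0.127%). Without the pair block the fit called 5 genes for the difference. Leaving out 1 pair at a time left 1 call for the difference each time, 4 to 11 in brain (4 without pair F3 and 6 without F7) and 15 to 26 in liver (15 without F3, 16 without F7, 18 without F2 and 22 without F5). The spread differed between the tissues, with a biological coefficient of variation of 9.51% in brain and 15.4% in liver, and the joint fit shared 1 dispersion per gene. Fitted on its own, brain gave 10 calls and liver 5 (Znrd1, Znrd1as, Rsph3a, Acat3 and H2-Eb1, all in the t region). Of the liver calls of the joint fit, 16 of the 21 in the t region and all 15 outside it were absent there. Of these, 5 were too low in liver to be tested in that fit. They were 4930539E08Rik in the t region and Cacnb3, Asns, Pcdh18 and Pcdh7 outside it.

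The calls lay largely in the t region, which held 446 of the tested genes. Of the calls, 11 of 13 in brain and 21 of 36 in liver were t region genes, which is 2.47% and 4.71% of the t region genes tested. At an unadjusted p under 0.05 the brain minus liver difference was found for 68 t region genes (15.2%) and for 853 of all genes tested (5.44%). The median absolute difference was 0.178 log2 in the t region and 0.122 log2 outside it. Among the 363 t region genes expressed in both tissues, none was called for the difference with the p adjusted over all genes tested. With only genes expressed in both tissues tested, Synj2, Fndc1 and B3galt4 of the 363 were called (edgeR adjusted p = 0.0458 for each). The median absolute difference of the 363 was 0.132 log2, against 0.0897 log2 for all 11391 genes expressed in both tissues. By position, the median absolute difference of these genes was 0.132 log2 from 0 to 10 Mb (25 genes), 0.215 log2 from 10 to 20 Mb (33 genes), 0.114 log2 from 20 to 30 Mb (149 genes) and 0.166 log2 from 30 to 40 Mb (156 genes).

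**Figure D1:**
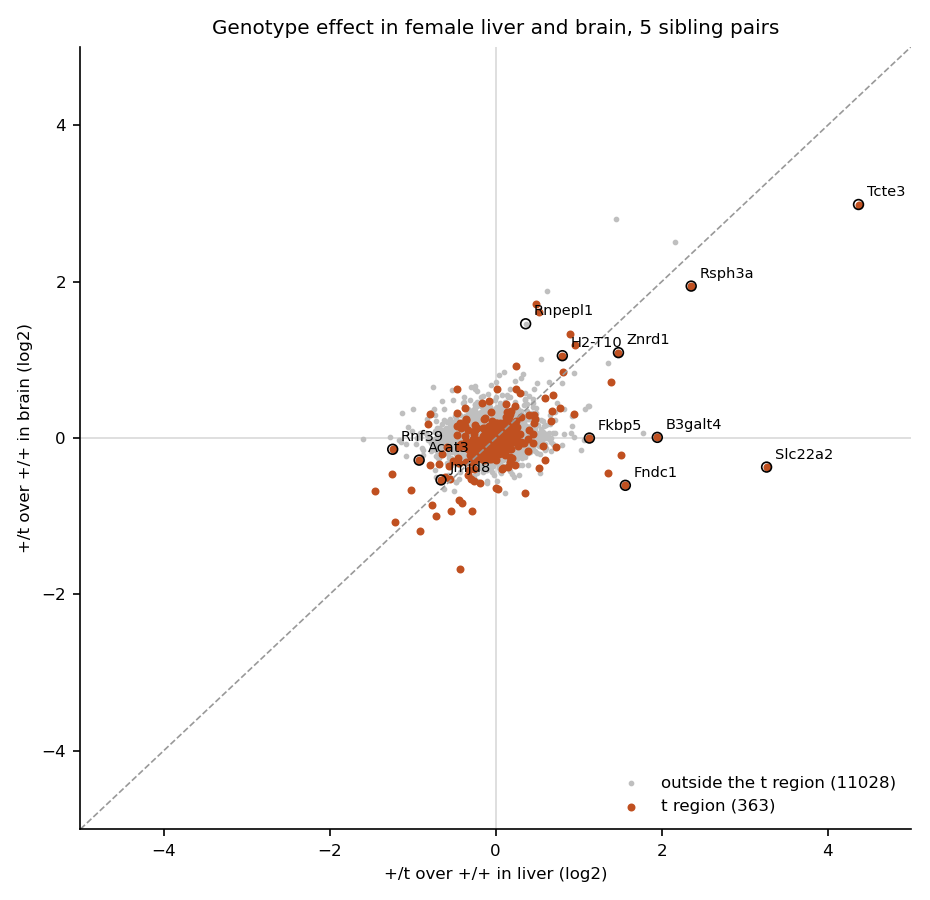
Each point is 1 of the 11391 genes expressed in both tissues, with the +/t over +/+ log2 fold change in liver on the x axis and in brain on the y axis; the 363 t region genes are in orange and the dashed line marks equal effects. Rsph3a, Znrd1, H2-T10, Tcte3 and Jmjd8 lie on the same side of 0 in both tissues, Rnpepl1 lies above the line, and B3galt4, Fkbp5, Fndc1 and Slc22a2 lie to the right of it, with brain values of 0.01, 0.00, -0.60 and -0.37.

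Rnpepl1, an aminopeptidase-like gene of the family that holds arginyl aminopeptidase, had the lowest p for the difference. It lies on chromosome 1 (GRCm38, chr1:92910783-92924384, plus strand), outside the t region. In brain, its level was 24.2, 22.1, 24.9, 21.3 and 24.1 CPM in the +/+ sisters of pairs F2, F3, F4, F5 and F7 and 68.0, 56.2, 71.2, 67.3 and 58.6 CPM in their +/t sisters, an order of pairs kept in all lists of 5 values that follow. In liver, the level was 94.1, 109, 101, 89.8 and 106 CPM in +/+ and 138, 143, 104, 129 and 129 CPM in +/t. The brain groups did not overlap, whereas the liver groups did, through the +/t sister of pair F4, although the +/t sister was higher in all 5 pairs in each tissue. The genotype effect was 1.46 ± 0.08 log2 (SE, n = 5 pairs) in brain, with an edgeR adjusted p of 8.66e-07, and 0.36 ± 0.08 log2 in liver, with an adjusted p of 0.0903. The effect in brain exceeded that in liver by 1.1 ± 0.11 log2 (95% interval 0.86 to 1.33; edgeR adjusted p = 0.00202). The call held under each of the 15 alternatives, with a difference of 1.008 to 1.135 log2 and an adjusted p of at most 0.0345. In the 5 male pairs the difference was 0.80 ± 0.09 log2 (edgeR adjusted p = 0.000864), from a brain effect of 1.16 and a liver effect of 0.36, both of which were called in males (adjusted p = 3.65e-07 and 0.0215).

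The genes beside Rnpepl1 on chromosome 1 were not called. Within 150 kb of it, Gpc1 differed between +/t and +/+ by 0.07 log2 in brain and -0.07 in liver, Dusp28 by 0.18 and 0.25, Capn10 by 0.16 and -0.07, and Gpr35 by -0.06 and -0.11, and none passed the edgeR test in either tissue or for the difference. The RefSeq promoter of Rnpepl1 (250 bases before to 50 after the start, GRCm38.p6, chr1:92910575-92910874, plus strand) is shown because Rnpepl1 is the gene whose genotype effect was most clearly unequal between the tissues. Capitals mark the GC box GGGCGG, searched on both strands.
Rnpepl1 promoter: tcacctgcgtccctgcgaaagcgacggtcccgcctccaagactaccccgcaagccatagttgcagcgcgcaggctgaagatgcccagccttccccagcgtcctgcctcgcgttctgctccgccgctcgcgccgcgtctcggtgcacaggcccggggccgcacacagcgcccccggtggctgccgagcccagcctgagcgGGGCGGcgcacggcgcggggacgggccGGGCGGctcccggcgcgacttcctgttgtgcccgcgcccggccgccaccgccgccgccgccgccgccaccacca
The GC box occurred from bases 200 and 227 of this window, and 35.7% of 32851 RefSeq promoters hold at least 1. A TATA box (TATAAA, in 13.6% of promoters), a CCAAT box (CCAAT, 37.4%) and an E-box (CACGTG, 7.15%) had no match in it on either strand.

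Plg, which encodes plasminogen, the liver-made precursor of the clot-dissolving protease plasmin, was the only t region gene called for the difference. It lies at chr17:12378608-12419385 (GRCm38, plus strand). In liver it was among the abundant transcripts, at 3550, 4439, 3946, 4343 and 3794 CPM in +/+ and 4314, 4572, 4299, 5620 and 4471 CPM in +/t. In brain it was barely detected, with 0, 2, 2, 1 and 0 counts in +/+ and 8, 16, 13, 3 and 7 counts in +/t. These brain counts correspond to at most 0.0714 CPM in +/+ and to 0.114 to 0.561 CPM in +/t. The brain groups did not overlap and the liver groups did, although the +/t sister was higher in all 5 pairs in each tissue. The genotype effect was 3.36 ± 0.57 log2 in brain (edgeR adjusted p = 0.00401) and 0.21 ± 0.10 log2 in liver (adjusted p = 0.582). The difference was 3.14 ± 0.58 log2 (95% interval 1.90 to 4.39; adjusted p = 0.0329).

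The call for Plg rested on few counts and did not hold when any pair was left out (2.95 to 3.42 log2, with an edgeR adjusted p of 0.0855 without F5 to 0.25 without F4). It was also lost with the animal as a block (adjusted p = 0.175) and with the even-count library halved (0.0624). In males, Plg was also higher in +/t brain, at 0.166 to 0.554 CPM against 0.065 to 0.135 CPM in +/+, with no overlap. The male difference was 1.42 ± 0.34 log2 and did not pass the test (edgeR adjusted p = 0.12). The hepatocyte transcript Apoa1 ranged from 0.111 to 0.321 CPM in the female brain libraries, and Alb was at or near 0 in them. Plg shares 426 bases with Slc22a3, a transporter gene on the opposite strand, and the strand setting of the counting is not given in the sources used here. Slc22a3 ranged from 1.67 to 3.41 CPM in brain and had a genotype effect of 0.55 ± 0.28 log2 there (edgeR adjusted p = 1). Its part in the Plg result was not tested.

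Of the t region genes with the lowest p after Plg, 10 were described although none passed the test of the difference as reported. They were picked by that p. Under the alternatives, the difference passed for Fndc1 in 6 of 15, B3galt4 in 5, Fkbp5 and Synj2 in 3 each and 4930539E08Rik in 3 of 14. It passed in 1 of 15 for Slc22a2, Srpk1 and Acat3 and in 0 of 15 for Rnf39 and Ddr1. Of the 10, 7 had a more negative genotype effect in brain than in liver. In 6 of the 7, a liver transcript was higher in +/t and called in liver. B3galt4, which encodes a galactosyltransferase of ganglioside synthesis, is 1 of them (chr17:33949909-33951488, minus strand). In liver it was at 0.74, 0.595, 0.551, 0.438 and 0.412 CPM in +/+ and at 1.88, 1.90, 1.74, 3.25 and 2.02 CPM in +/t. In brain it was at 3.19, 3.43, 3.18, 3.63 and 2.77 CPM in +/+ and at 2.74, 3.54, 3.60, 3.60 and 2.84 CPM in +/t. The liver groups stood apart and the brain groups overlapped. The effect was 1.95 ± 0.27 log2 in liver (edgeR adjusted p = 0.00343) and 0.01 ± 0.14 in brain, a difference of -1.94 ± 0.30 (adjusted p = 0.0647). The liver values of B3galt4 rest on 4 to 30 counts per library, and its liver effect did not pass in liver alone (adjusted p = 0.118). In males its liver effect was 0.98 ± 0.30 log2 (edgeR adjusted p = 0.187) and the liver groups overlapped. The male difference was -0.91 ± 0.34 (adjusted p = 0.462).

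Fkbp5, a co-chaperone of the glucocorticoid receptor that glucocorticoids induce, followed the same pattern at higher counts (chr17:28399094-28517527, minus strand). In liver it was at 17.6, 22.4, 18.4, 29.8 and 18.9 CPM in +/+ and at 53.5, 32.2, 46.3, 51.0 and 49.6 CPM in +/t. In brain it was at 20.2, 21.4, 17.9, 26.6 and 22.4 CPM in +/+ and at 27.6, 19.5, 18.3, 21.9 and 21.3 CPM in +/t. Every liver +/t value lay above every liver +/+ value, and the brain groups overlapped. The effect was 1.13 ± 0.14 log2 in liver (edgeR adjusted p = 0.00343) and 0.00 ± 0.13 in brain, a difference of -1.13 ± 0.20 (95% interval -1.55 to -0.71; adjusted p = 0.109). With the animal as block, since brain and liver came from the same animals, the difference for Fkbp5 passed (-1.13, adjusted p = 0.0101). In liver alone its effect was 1.15 log2 and did not pass (adjusted p = 0.0743). In males the liver effect of Fkbp5 was 1.34 log2 (edgeR adjusted p = 0.0407) and the difference -1.36 ± 0.35 (adjusted p = 0.213). Among 12 genes of a glucocorticoid response list, none was called for the difference and Fkbp5 was the only one called in liver. Of that list, Pdk4, Sgk1, Zbtb16 and Pck1 had liver values of -0.52, -0.44, -0.60 and -0.40 log2, opposite in sign to Fkbp5. Per1, Tat and Klf9 were also below 0 (-0.33, -0.12 and -0.05). Mt2, Lcn2, Mt1 and Tsc22d3 had the sign of Fkbp5, at 1.13, 1.11, 0.65 and 0.25 log2, and were not called either.

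The RefSeq promoters of B3galt4 and Fkbp5 (both 300 bases on the minus strand of chromosome 17, GRCm38.p6, chr17:33951439-33951738 and chr17:28486100-28486399) are set side by side because both genes were called in liver and had brain effects near 0. Capitals mark the GC box, CCAAT box and E-box motifs spelled out above for Rnpepl1, found on either strand.
B3galt4 promoter: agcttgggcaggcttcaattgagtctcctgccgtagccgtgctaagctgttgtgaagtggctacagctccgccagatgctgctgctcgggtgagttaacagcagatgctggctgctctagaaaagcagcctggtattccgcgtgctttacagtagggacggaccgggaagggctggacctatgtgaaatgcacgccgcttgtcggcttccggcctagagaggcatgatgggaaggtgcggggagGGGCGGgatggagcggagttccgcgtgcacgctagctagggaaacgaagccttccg
Fkbp5 promoter: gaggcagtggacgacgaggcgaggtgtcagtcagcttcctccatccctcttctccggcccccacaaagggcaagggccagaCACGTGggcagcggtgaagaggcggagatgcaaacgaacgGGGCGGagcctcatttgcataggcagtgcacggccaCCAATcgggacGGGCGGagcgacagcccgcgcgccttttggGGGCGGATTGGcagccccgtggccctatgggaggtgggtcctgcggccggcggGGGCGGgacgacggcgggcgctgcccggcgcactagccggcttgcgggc
The B3galt4 window holds 1 GC box, from base 245. The Fkbp5 window holds 4 GC boxes, from bases 122, 169, 199 and 252, a CCAAT box from base 158, its reverse complement from base 205 directly after a GC box, and an E-box from base 82. No TATAAA was found in either window.

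The other genes raised in +/t liver included 3 at low levels. Fndc1, a gene for a fibronectin type III domain protein (chr17:7738569-7827302), was at 0.643 to 1.16 CPM in liver +/+ and 2.32 to 3.68 CPM in liver +/t, with no overlap. In brain, Fndc1 ran the other way in 4 of 5 pairs, at 5.56 to 9.99 CPM in +/+ and 3.68 to 5.99 CPM in +/t. Its effect was 1.56 ± 0.30 log2 in liver (edgeR adjusted p = 0.0474) and -0.60 ± 0.17 in brain (adjusted p = 0.91), a difference of -2.17 ± 0.35 (adjusted p = 0.0703) that passed with the animal as block (adjusted p = 0.0344); the liver effect did not pass in liver alone (adjusted p = 0.118). In males the liver effect of Fndc1 was 0.75 ± 0.40 log2 (edgeR adjusted p = 0.51) and the difference -1.19 ± 0.46 (adjusted p = 0.485). The +/+ liver of pair M6, at 5.64 CPM, lay above every male +/t liver (1.90 to 4.35 CPM). The protein-coding gene 4930539E08Rik had 0, 0, 1, 1 and 1 counts in female liver +/+ and 13, 3, 7, 9 and 7 in female liver +/t, and its brain levels overlapped at 8.04 to 13.9 CPM. Its difference was -3.52 ± 0.79 log2 (adjusted p = 0.0735), and it was called in males at -2.74 ± 0.49 (adjusted p = 0.00695). Slc22a2, an organic cation transporter known from kidney (chr17:12584132-12628488), was at 0, 0, 1.38, 0.986 and 2.06 CPM in liver +/+ and at 8.82, 6.92, 6.27, 11.6 and 7.88 CPM in liver +/t. Its liver effect was 3.26 ± 0.51 log2 (edgeR adjusted p = 0.0105; 0.185 in liver alone), and in brain it was at 0.515 CPM or less in all libraries. The difference for Slc22a2 was -3.63 ± 0.79 (adjusted p = 0.21) and -1.61 ± 1.04 in males (adjusted p = 0.7).

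The last 2 of the 7 were expressed well in both tissues. Srpk1, a kinase of SR splicing factors, was at 32.4 to 40.6 CPM in liver +/+ and 46.1 to 52.9 CPM in liver +/t, with no overlap, and at 38.3 to 48.9 CPM over all brain libraries. Its effect was 0.45 ± 0.08 log2 in liver (edgeR adjusted p = 0.0384; 0.253 in liver alone) and -0.06 ± 0.07 in brain. The difference was -0.51 ± 0.11 in females (adjusted p = 0.21) and -0.60 ± 0.11 in males, where it was called (adjusted p = 0.0294). Synj2, a phosphoinositide phosphatase of the synaptojanin family, had point estimates of opposite sign. It was at 63.3, 55.2, 61.0, 57.8 and 65.4 CPM in brain +/+ and 54.9, 46.0, 45.8, 43.7 and 48.9 CPM in brain +/t, and the groups did not overlap. In liver it was at 21.3, 22, 22.7, 24.1 and 26.2 CPM in +/+ and 28.4, 27.8, 24.6, 26.3 and 29.2 CPM in +/t. The +/t sister was lower in brain and higher in liver in all 5 pairs, but neither effect passed the test (brain -0.34 ± 0.06 log2, edgeR adjusted p = 0.0708; liver 0.23 ± 0.07, adjusted p = 0.28). The difference for Synj2 was -0.57 ± 0.09 (95% interval -0.77 to -0.37; adjusted p = 0.0735), and -0.32 ± 0.10 in males (adjusted p = 0.364). Synj2 shares bases with Serac1 on the opposite strand.

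**Figure D2:**
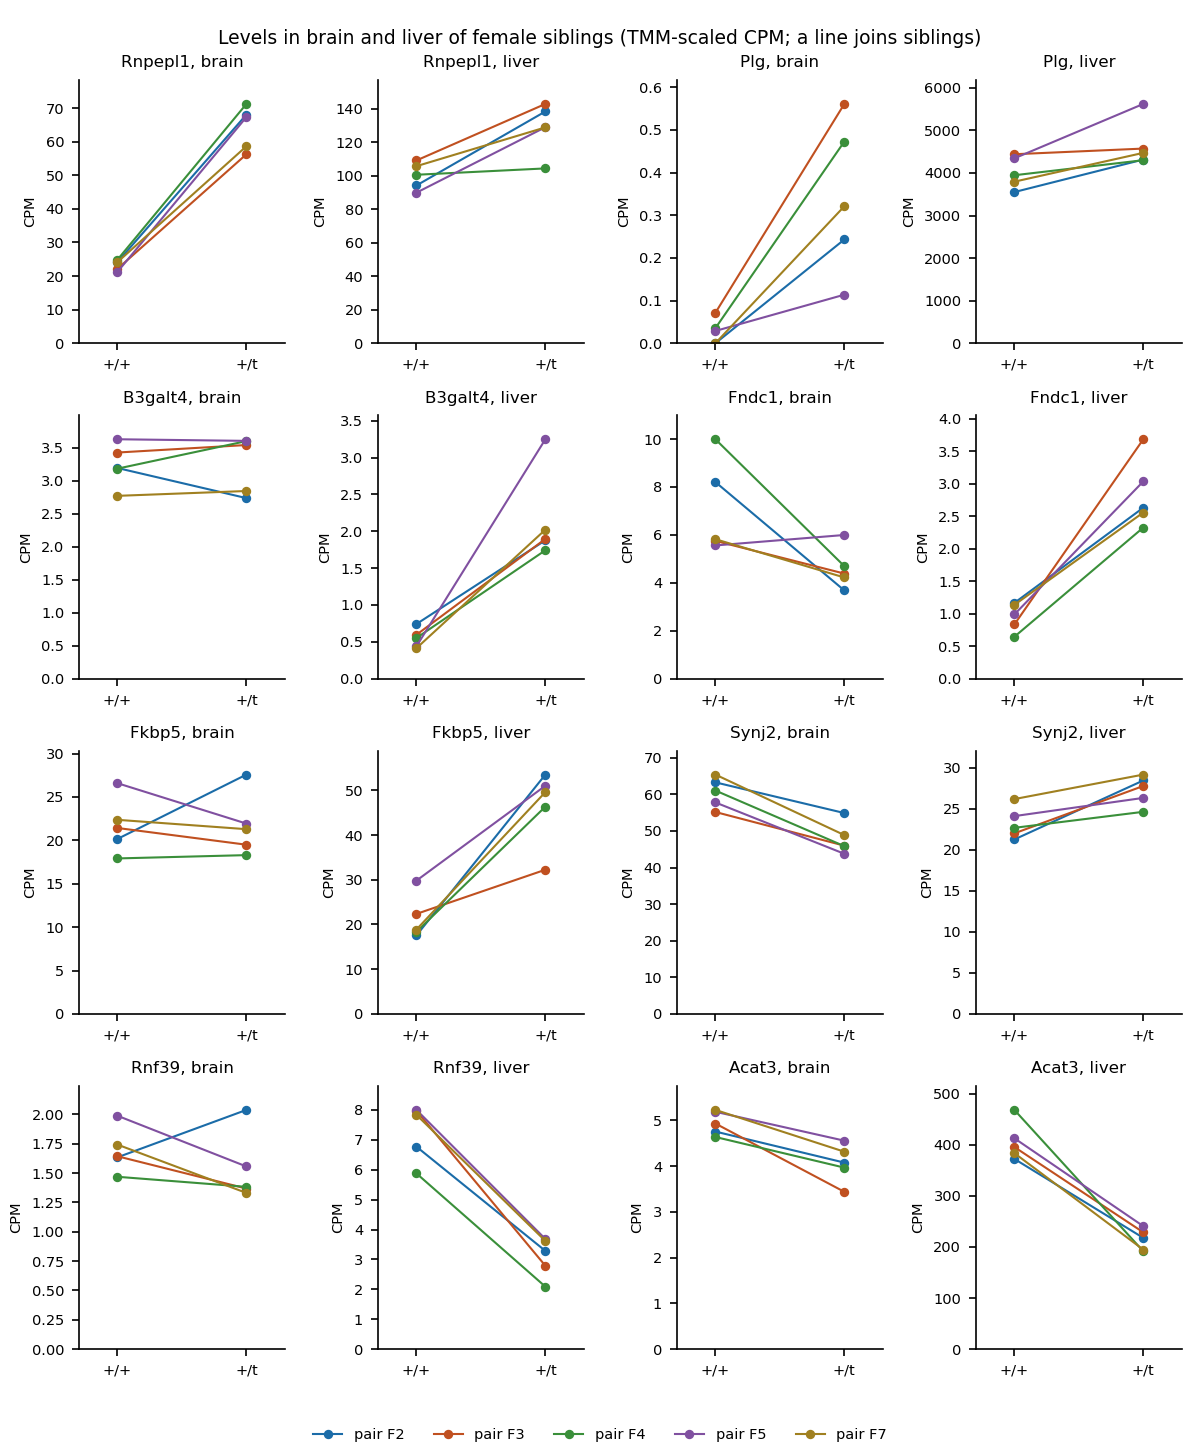
Levels in CPM (linear axis from 0) of 8 genes in brain and liver of each female, by genotype; each line joins the sisters of 1 pair. All 5 lines rise for Rnpepl1 and Plg in both tissues and for B3galt4, Fndc1, Fkbp5 and Synj2 in liver. All 5 fall for Acat3 in both tissues, for Rnf39 in liver and for Synj2 in brain.

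The remaining 3 genes had lower liver levels in +/t. Acat3, an acetyl-CoA acetyltransferase gene (chr17:12923813-12940600, minus strand), was at 372, 396, 468, 413 and 384 CPM in liver +/+ and at 218, 229, 192, 241 and 195 CPM in liver +/t. In brain it was far lower, at 4.63 to 5.23 CPM in +/+ and 3.44 to 4.55 CPM in +/t. The groups overlapped in neither tissue. The effect was -0.92 ± 0.08 log2 in liver (edgeR adjusted p = 0.000113) and -0.28 ± 0.10 in brain (adjusted p = 1), a difference of 0.64 ± 0.13 (adjusted p = 0.173; 0.69 ± 0.15 in males, adjusted p = 0.113). A transcript of Acat3 matches its neighbour Acat2 at 97.7% over 1477 bases, so its counts are uncertain where the counting could not split them. Acat3 also shares 1255 bases with Tcp1 on the opposite strand. Tcp1 was at a mean of 119 CPM in brain +/+ and 106 CPM in brain +/t, far above Acat3 there, with a brain effect of -0.18 ± 0.07 log2 (edgeR adjusted p = 1); its part in the brain values of Acat3 was not tested.

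Rnf39, a RING finger gene (chr17:36942918-36947986), was at 6.77, 7.97, 5.87, 8 and 7.83 CPM in liver +/+ and at 3.29, 2.79, 2.09, 3.68 and 3.62 CPM in liver +/t. In brain it was at 1.33 to 2.04 CPM over all libraries, and the genotypes overlapped. Its effect was -1.24 ± 0.16 log2 in liver (edgeR adjusted p = 0.00291; 0.0545 in liver alone) and -0.14 ± 0.15 in brain, a difference of 1.1 ± 0.22 (adjusted p = 0.173). The male value was 1.03 ± 0.22 (adjusted p = 0.108). Rnf39 lies next to Znrd1, which rose in both tissues. Ddr1, a collagen receptor tyrosine kinase, was not called in either tissue; its liver effect was -0.81 ± 0.21 log2 on 9 to 31 counts per library, and its difference was 0.99 ± 0.23 in females (edgeR adjusted p = 0.297) and 0.03 ± 0.38 in males.

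Genes called in brain and in liver of the same fit numbered 5, all in the t region: Znrd1, Rsph3a, H2-T10, Jmjd8 and Tcte3. They were 38.5% of the 13 brain calls and 13.9% of the 36 liver calls, and each changed in the same direction in both tissues. Znrd1, which encodes a small subunit of RNA polymerase I, was at 7.87, 8.93, 8.37, 8.67 and 9.62 CPM in brain +/+ and at 18.5, 14.7, 18.1, 20.2 and 21.7 CPM in brain +/t. In liver Znrd1 was at 8.99, 8.32, 8.54, 6.79 and 9.69 CPM in +/+ and at 28.4, 19.5, 22.1, 21.6 and 26.7 CPM in +/t. The genotypes did not overlap in either tissue. The effect was 1.09 ± 0.09 log2 in brain and 1.48 ± 0.10 in liver (edgeR adjusted p = 9.16e-05 and 2.3e-05), a difference of -0.39 ± 0.14 (95% interval -0.68 to -0.09; unadjusted p = 0.0133, adjusted p = 0.742).

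Rsph3a, a radial spoke protein gene of cilia and flagella, rose in +/t by 1.94 ± 0.18 log2 in brain and 2.36 ± 0.21 in liver (edgeR adjusted p = 0.000368 and 0.000113). Its levels were 1.58 to 3.38 CPM against 7.68 to 9.94 CPM in brain, and 2.19 to 5.39 CPM against 15.7 CPM or more in liver. The difference for Rsph3a was -0.41 ± 0.28 (95% interval -1.02 to 0.19) in females and -1.16 ± 0.41 in males, and passed the test in neither (adjusted p = 1 and 0.431). Its transcripts match those of Rsph3b at 99.4%. H2-T10, a nonclassical class I gene of the histocompatibility complex, rose by 1.05 ± 0.17 log2 in brain and 0.80 ± 0.14 in liver (adjusted p = 0.0352 and 0.0384), with a difference of 0.25 ± 0.22 (95% interval -0.22 to 0.72); with each tissue fitted on its own it passed in neither (adjusted p = 0.0575 in brain and 0.185 in liver). H2-T10 was 2.34 to 3.68 CPM against 4.11 to 6.98 CPM in brain and 36.6 to 48.4 CPM against 47.2 to 95.6 CPM in liver, where pair F4 brought the groups into overlap, and it matches H2-T22 at 96.5%. H2-T10 also shares 5590 bases with Gm7030 on the same strand.

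Jmjd8, a jumonji domain protein gene, fell in +/t by 0.54 log2 in brain and by 0.66 log2 in liver (SE 0.08 in each; edgeR adjusted p = 0.0175 and 0.00213). It was at 25.3 to 30.0 CPM in brain +/+ and 18.1 to 20.5 CPM in brain +/t, and at 57.4 to 76.7 CPM in liver +/+ and 36.0 to 45.3 CPM in liver +/t. The groups did not overlap in either tissue, and the difference for Jmjd8 of 0.12 ± 0.11 had a 95% interval of -0.11 to 0.36. Jmjd8 was also called in male brain and liver (-0.60 and -0.81 log2, adjusted p = 0.00108 and 0.000106). In liver alone the fall of Jmjd8 did not pass (adjusted p = 0.118). Jmjd8 shares 1339 bases with Stub1 on the opposite strand and 2977 with the noncoding gene Gm26694 on the same strand. Tcte3, a dynein light chain gene of the t complex, was rare in both tissues. It had at most 6 counts per +/+ library and 11 to 24 counts per +/t library. Tcte3 rose by 2.99 ± 0.47 log2 in brain and 4.37 ± 0.77 in liver (edgeR adjusted p = 0.00985 and 0.00213). With each tissue alone, the edgeR adjusted p was 0.0134 in brain and 0.0545 in liver. Tcte3 shares 14337 bases with the protein-coding gene Gm3448 on the same strand. The part of these overlaps in the counts was not tested.

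**Figure D3:**
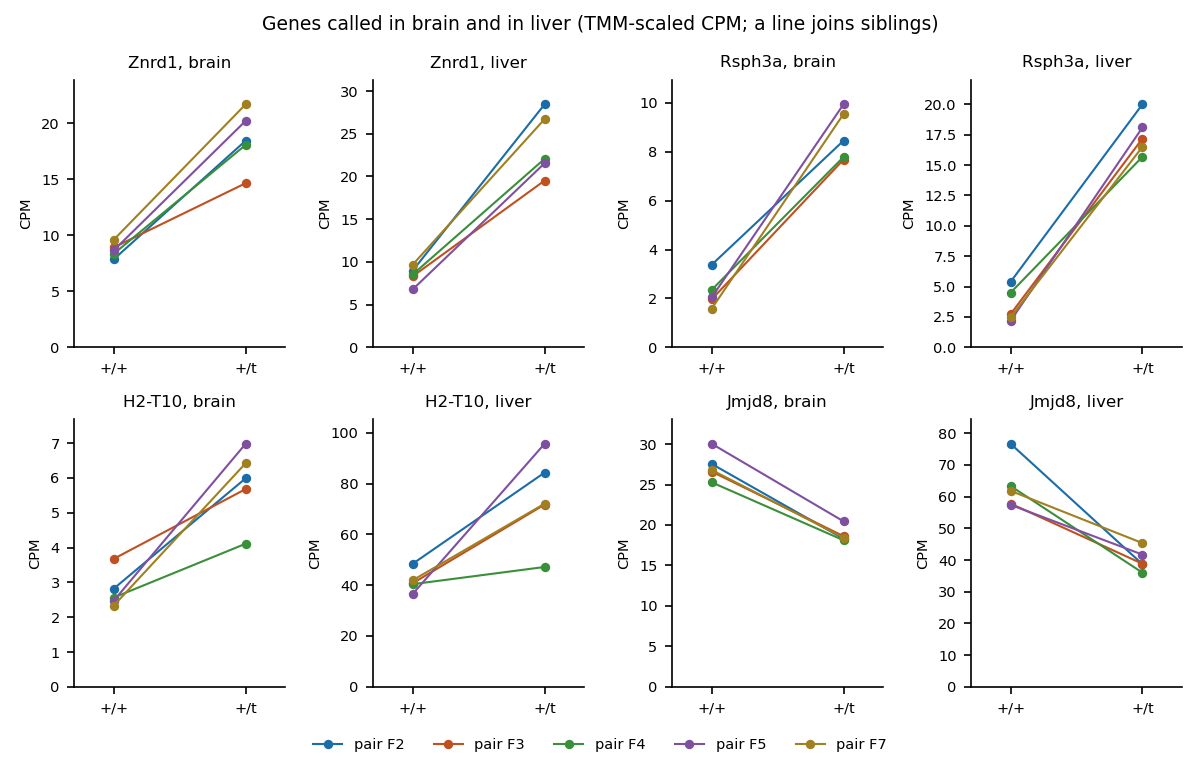
Levels in CPM (linear axis from 0) of 4 genes called in brain and in liver, by genotype and tissue; each line joins the sisters of 1 pair. All lines rise for Znrd1, Rsph3a and H2-T10 and all fall for Jmjd8, in each tissue.

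The other 8 genes called in brain had the same sign in liver without being called there. Besides Rnpepl1 and Plg these were Tagap1, Prr18, Rnf151, 1520401A03Rik, Wdr90 and Gm12355, named because they were called in 1 tissue. Tagap1, a GTPase activating protein gene known as a t haplotype distorter, fell by 1 log2 in brain (edgeR adjusted p = 0.0305; 0.0506 in brain alone) and was at -0.72 ± 0.20 in liver (adjusted p = 0.226), with a difference of -0.28 ± 0.25 (95% interval -0.83 to 0.26). Wdr90 fell by 0.94 log2 in brain (adjusted p = 0.0294) and was at -0.53 in liver. Prr18 rose by 0.71 ± 0.11 log2 in brain (adjusted p = 0.0308) and was at 0.89 ± 0.44 in liver, where it is hardly expressed. Transcripts of Tagap1 match Tagap at 99.0%, so its counts are uncertain. The difference for Tiam2, Fgd2 and Nme3, the other distorter genes tested, was -1.57 ± 0.55, 0.38 ± 0.30 and 0.13 ± 0.14 log2 (adjusted p = 0.735, 1 and 1). Smok2a, Smok2b and Tcp11 of the 7 listed distorters and responders were too low to be tested.

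In liver, 15 of the 36 calls lay outside the t region, and none of these 15 was called when liver was fitted on its own. Of the 15, Cacnb3, Asns, Pcdh18 and Pcdh7 were too low in liver to be tested in that fit. The fit also lacked 16 of the 21 calls inside the t region, of which 4930539E08Rik was too low to be tested. Some of the 15 were brain transcripts with few liver counts. Cacnb3 and Pcdh7, at means of 138 and 112 CPM in brain +/+, had 2 to 13 and 2 to 21 counts per liver library. Among those better expressed in liver, Plxnb1, a semaphorin receptor gene, fell by 0.45 log2 (edgeR adjusted p = 0.0116). Mycl, a Myc family gene, fell by 1.05 (adjusted p = 0.0303). Fmo2, a flavin monooxygenase gene, rose by 0.83 (adjusted p = 0.0118). In the male livers, none of the 15 was called, 10 had the same sign and 5 the opposite sign. The 21 liver calls inside the t region had the same sign in males without exception, and 14 of them were called there (male liver background 0.655%). Of the brain calls, 9 of 11 in the t region and both outside it (Rnpepl1 and Gm12355) were called in males with the same sign (male brain background 0.204%). Summed endothelial markers were lower in every +/t liver (215 to 307 CPM) than in any +/+ liver (312 to 359 CPM), and overlapped in brain (87.5 to 141 and 101 to 128 CPM); their part in the liver calls was not tested.

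**Figure D4:**
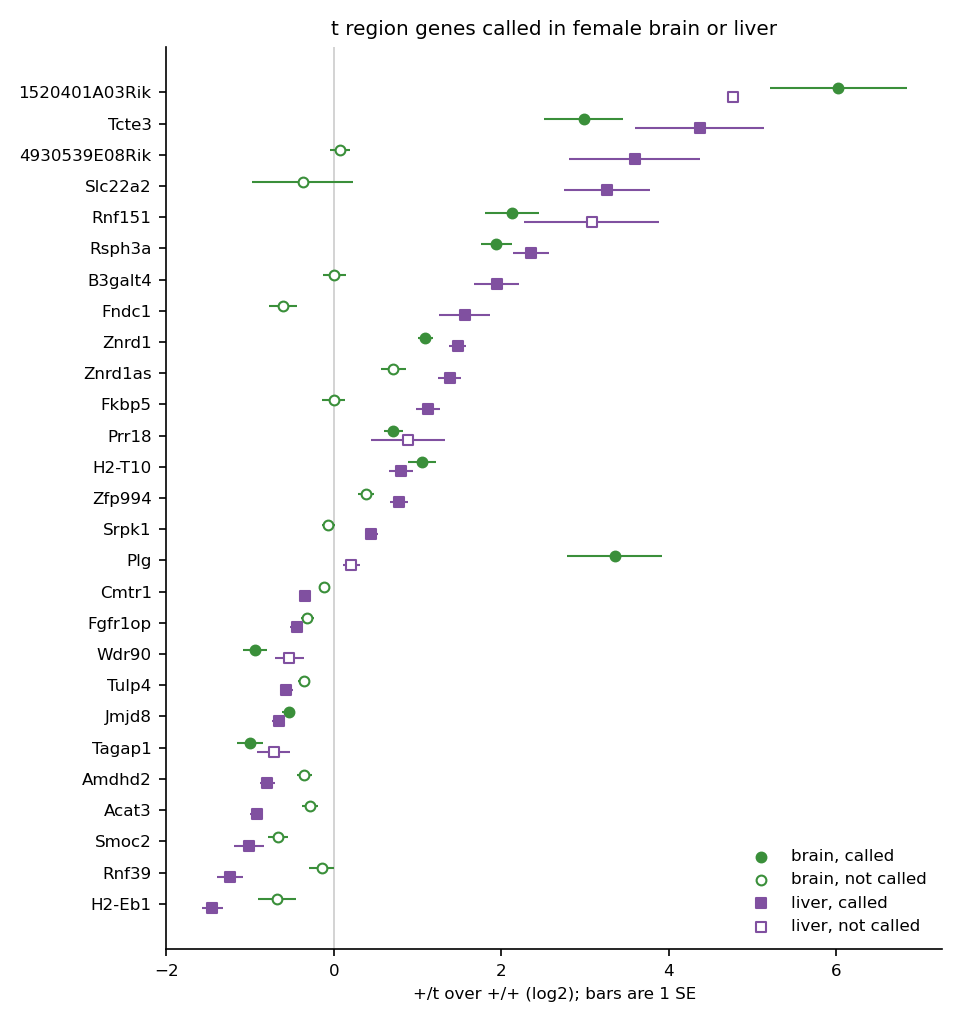
The +/t over +/+ log2 fold change in brain (green circles) and liver (purple squares) of the 27 t region genes called in either tissue, ordered by the liver value; filled symbols were called and bars are 1 SE, which is not shown for 1520401A03Rik in liver. Brain and liver values lie on the same side of 0 for most genes, and the brain values of B3galt4, Fkbp5, 4930539E08Rik and Slc22a2 lie between -0.37 and 0.08 while their liver values lie between 1.13 and 3.59.

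No member of the gene lists was called for the brain minus liver difference. Of 31 t complex genes, 24 were tested, with 2 called higher and 0 lower in brain, 3 higher and 2 lower in liver (against 2.47% and 4.71% of all t region genes, where all 24 lie, and 0.0829% and 0.229% of all genes), and a median difference of 0.070 log2, against 0.033 over all genes tested. Of 20 class I genes of the histocompatibility complex, 16 were tested, 1 was called in each tissue (H2-T10), and the median difference was 0.18 log2, with a range of -1.05 to 1.22. H2-Q4 had the lowest p among them (0.76 ± 0.19 log2, unadjusted p = 0.00122, edgeR adjusted p = 0.407). Of 16 class II and antigen processing genes, 13 were tested and H2-Eb1 alone was called, in liver, where it fell by 1.45 log2 (adjusted p = 0.000113). H2-Eb1 was at -0.68 ± 0.22 log2 in brain, and its difference was 0.77 ± 0.26 (adjusted p = 0.705).

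Among lists that lie largely or wholly outside the t region, the 14 immediate early genes (1 of them, Dusp1, in the t region) had a median effect of 0.24 log2 in brain and -0.37 in liver, and their median difference was 0.64, with 12 of 14 above 0 and none at an unadjusted p under 0.05. At an unadjusted p under 0.05 the share over all genes tested was 5.44%, and the median difference over all genes was 0.033 log2. The 9 heat shock genes tested, of which Hspa1a and Hspa1b lie in the t region and set the lowest values, had differences from -1.80 to -0.08 log2, with a median of -0.18, none at an unadjusted p under 0.05. All 9 endothelial markers had a difference above 0 (median 0.28 log2, range 0.21 to 0.88), with 1, Pecam1, at an unadjusted p under 0.05 (0.41 ± 0.13, edgeR adjusted p = 0.67). The 10 microglia and macrophage markers (1 in the t region, Aif1) had a median difference of 0.44 log2, with 8 of 10 above 0 and 3 at an unadjusted p under 0.05. Values above 0 were not particular to these 2 lists. The 10 neuronal markers, 2 of them expressed in both tissues, had a median of 0.999 log2, with 8 above 0 and 3 at an unadjusted p under 0.05. Of 8 oligodendrocyte markers 7 were above 0 (median 0.33 log2), as were all 7 of choroid plexus (median 0.10). The 4 blood and erythroid and 3 olfactory markers tested were all below 0. The median over 14 circadian clock genes was -0.014 log2, over 15 fatty acid oxidation genes -0.013 and over 19 sterol and lipid synthesis genes 0.065, and none of these genes was called in either tissue.

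The same contrast in the 5 male pairs gave the same sign for all 12 genes described for the difference. Of the 12, 3 were called in males (Rnpepl1, 4930539E08Rik and Srpk1) and 10 had an unadjusted p under 0.05. With each male pair left out in turn, Rnpepl1 kept its call (0.82 log2, edgeR adjusted p = 0.00839 without M3), 4930539E08Rik lost it without M6 only (-2.84 log2, adjusted p = 0.0307 without M3), and Srpk1 held it without M6 only (-0.68 log2, adjusted p = 0.0396). Over the 68 t region genes with an unadjusted p under 0.05 in females, 57 had the same sign in males (83.8%), and over the 776 genes outside it that were also tested in males, 476 did (61.3%). In males, edgeR called 43 genes for the difference (0.274% of 15714), 6 of them in the t region, but 6 in all when only genes expressed in both tissues were tested (Rnpepl1, Neu1, H2-Q1, H2-Q2, Slc35f1 and Wnk4) and 4 without the pair block; with a pair left out, the count was 24 to 29 (24 without M3, M5 or M6). Some of the 43 were high in a single library: the muscle gene Acta1 was at 141 CPM in the +/+ liver of pair M6 and at 0 in the other male livers, and Mup4 was at 736.5 CPM in the +/+ brain of pair M2 and at 0 in the other male brains. The 3-way test of whether the brain minus liver difference depends on sex called 0 of 16053 genes with edgeR (756 at an unadjusted p under 0.05), and 14 with DESeq2. For Rnpepl1 the female value exceeded the male value by 0.27 ± 0.14 log2, and for Plg by 1.69 ± 0.63 (unadjusted p = 0.0595 and 0.0122; edgeR adjusted p = 1 and 0.917).

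**Figure D5:**
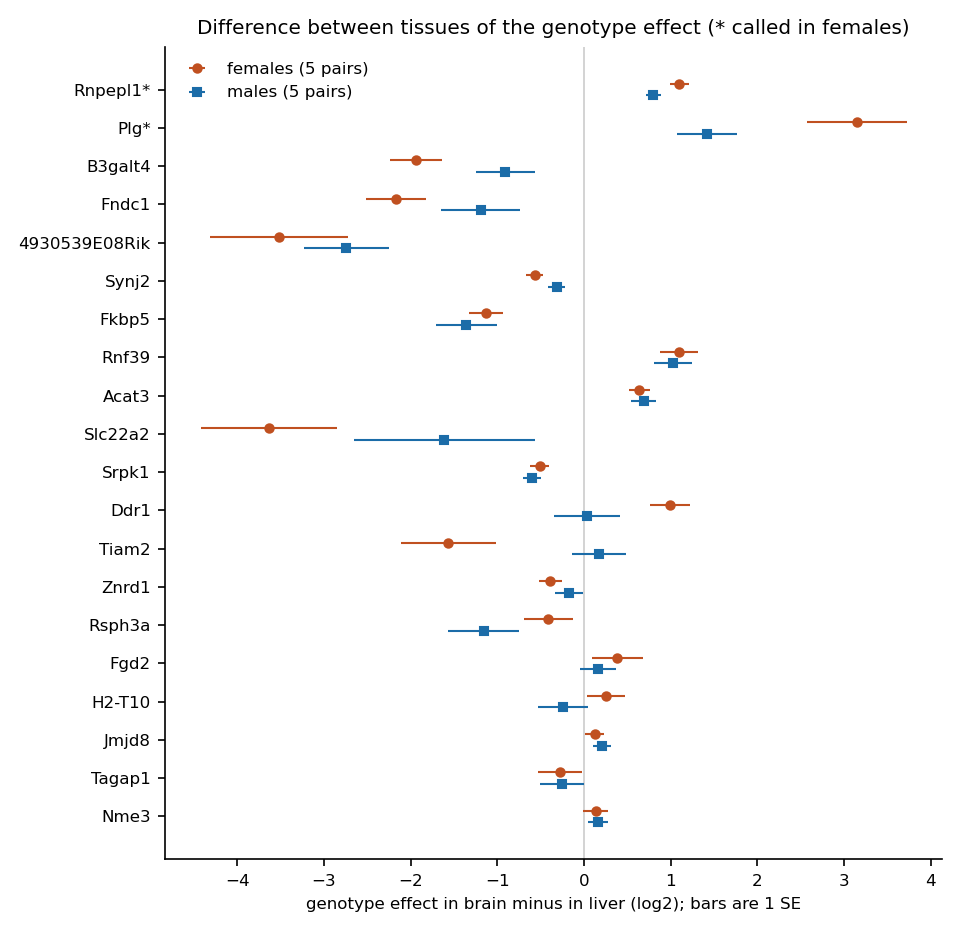
Genotype effect in brain minus genotype effect in liver (log2, x axis) for the 20 described genes in 5 female pairs (orange circles) and 5 male pairs (blue squares), with bars of 1 SE. The 12 genes from Rnpepl1 down to Ddr1 have the same sign in both sexes, from 3.14 in females for Plg to -3.63 for Slc22a2; asterisks mark the 2 genes called in females.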

How the data were processed

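RNA was measured in brain and liver of 5 female and 5 male sibling pairs. Per the labels' protocols, liver RNA was purified with Trizol on columns, DNase included, brain RNA by phenol-chloroform extraction, and a stranded kit for mRNA was used. The submitters' processing notes name STAR 2.5.1b, featureCounts and GRCm38. How strand was handled in counting, and which annotation was used, is not given in the sources used here. GRCm38 is built from a strain without a t haplotype. The values the authors deposited are raw whole-number counts of 25567 genes, per the file headers; 95 genes had no position in the GENCODE annotation used here.

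Genes with a minimum count of 10 (filterByExpr over the 4 groups) were tested with the edgeR 4.0.16 quasi-likelihood test in R 4.3.3, with TMM factors, a block for each pair within each tissue and a genotype term per tissue. The difference is the contrast of these terms (8 residual degrees of freedom among libraries). SEs are Wald errors with the moderated quasi-dispersion. The threshold for a call was 0.05 for the p adjusted by Benjamini-Hochberg over all genes tested. CPM used TMM-scaled library sizes. Fits were tested on simulated data with differences planted only in genes above a minimum mean count in both tissues. There edgeR called 40.3% of 1.5-fold, 85.1% of 2-fold and 100% of 4-fold differences, with 4 false calls among 15572 genes. The simulation used 1 dispersion per gene for both tissues, so it does not cover the unequal spread of brain and liver. Its rates also do not cover genes with few counts in a tissue, such as Plg in brain and B3galt4 in liver. The pairing comes from the labels' sibling tag. Within these pairs, the correlation between sisters' deviations from the group mean was 0.185 to 0.329 in brain and 0.123 to 0.321 in liver. Animals of different pairs were not compared in this way, so these values cannot check the pairing. Replicates are separate animals. Depth was 11.1 to 42 M counts (M, mega) per female library. Transcripts were compared with blastn 2.17.0.

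Described genes were those called for the difference (if their mean log2 CPM reached 1 in a tissue), t region genes of lowest p up to 12 in all, genes called in both tissues, and the distorter and responder genes. Genes called in 1 tissue were added after their values were seen, as were examples from lists. The members and lists were chosen with earlier results of these data known. Alternatives were DESeq2 1.42.0, limma 3.58.1 voom, other scaling factors and filters, other blocks, the even-count F4 library halved and each pair left out. The even-count male library of pair M3 was not halved. The other 36 libraries of the series were not used here.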

Additional observations from a re-analysis of the deposited data

Results flagged for a closer look

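The genotype effect differed between the tissues by a test of the difference itself for Rnpepl1, by 1.1 log2, and for Plg, by 3.14 log2.

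Among 140 sets of 5 libraries (the described genes and the marker sums in each group), 8 held a library far from the other 4, and chance gives about 1 in 20. In +/t liver of pair F5, Plg was at 5620 CPM against 4299 to 4572 CPM in the other 4 libraries, and B3galt4 at 3.25 CPM against 1.74 to 2.02 CPM. Tiam2 was at 9.94 CPM in +/+ liver of pair F2, against 0.103 to 0.714 CPM. In +/t brain, Jmjd8 was at 20.5 CPM in pair F5 against 18.1 to 18.6 CPM, and Tagap1 at 3.95 CPM in pair F2 against 7.11 to 8.01 CPM. Summed pituitary markers were at 979 CPM in +/t brain of pair F3 against 2.44 to 9.22 CPM, with Prl at 605 CPM and Gh at 360 CPM in that library. Summed blood and erythroid markers were high in the +/+ animal of pair F3 in both tissues, at 435 CPM in brain against 53.6 to 107 CPM and at 1393 CPM in liver against 138 to 220 CPM.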

How the results depend on the processing

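The difference between brain and liver was called for 2 genes as reported, and for 22 with DESeq2, 5 with TMM factors computed within each tissue, 6 with no filter on low counts, 4 among genes expressed in both tissues, 5 without the pair block, 1 with the even-count library halved and 1 with any pair left out (1 to 1). With the animal as block it was called for 3 (Rnpepl1, Fndc1 and Fkbp5). Rnpepl1 was called in every one of these settings. Brain calls numbered 13 as reported, and 36 with DESeq2, 20 with no filter, 8 at a minimum count of 50, 24 with limma voom and 4 to 11 with a pair left out. Liver calls numbered 36 as reported, and 105 with DESeq2, 23 with limma voom, 5 in liver alone and 15 to 26 with a pair left out. In males the difference was called for 43 genes as reported, 4 without the pair block, 18 with the animal as block, 6 among genes expressed in both tissues and 24 to 29 with a pair left out. The test of a sex difference called 0 genes with edgeR, with or without the pair block, and 14 with DESeq2. The difference for Prr18 changed sign from -0.18 log2 to 0.030 with limma voom, and with a pair left out it ran from -0.52 without F4 to 0.23 without F3 and 0.0015 without F2; it passed the test in none of them. Apart from the construction of each setting (fewer genes or libraries), the cause was not tested. Over the named genes, 1185 of the other values kept their direction and their side of the threshold, 219 kept the direction but no longer passed and 29 passed only in the alternative. Scaling moved the median of all genes by at most 0.0232 log2. Plg and 4930539E08Rik are limited by depth, since few counts lie behind their values in brain and in liver, respectively.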
